A study of Mus musculus with 10 samples.

Results

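This account covers the messenger RNA levels of 10 transcription factor genes of myeloid differentiation, Hoxb8, Cebpa, Cebpb, Cebpd, Cebpe, Spi1, Gfi1, Runx1, Myb and Myc, in neutrophils derived from HoxB8-immortalized progenitors. The genes were chosen by symbol, and all 10 were found among the 13091 genes of the deposited tables. RNA was sequenced from clonal lines of mouse bone marrow, strain 129-SVEV by the labels, that either had vimentin (Vim+/+) or came from knockout animals (Vim-/-). The labels call the latter a knockdown. Every line carries HoxB8 fused to an estrogen-binding domain, delivered by lentivirus, and was differentiated by removing estrogen and adding IL-3 and granulocyte colony-stimulating factor. There were 2 Vim+/+ libraries and 3 Vim-/- libraries of unstimulated cells, and 2 and 3 libraries after 25 ng/mL LPS for 1 hour, so 10 libraries in 4 groups. By the study's methods the lines are clonal, and the labels number the replicates 1 and 3 for Vim+/+ and 1, 2 and 3 for Vim-/-. The sample titles do not say which line a replicate came from.

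The value described is baseMean, the authors' mean of normalized counts over libraries, which they list once per gene. It is identical in all 4 tables for every gene. The other columns of these tables are the authors' own comparisons of genotypes and of LPS, and they are not used or printed here. Levels per library or per group, their spread and the effects of genotype and LPS on these genes were therefore not analysed here, and no test was run. The level is weighted toward the Vim-/- cells, which gave 6 of the 10 libraries. It also pools unstimulated libraries with LPS-treated ones, which were equal in number within each genotype. The depth of each library is unknown.

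Neutrophils arise from granulocyte-monocyte progenitors through promyelocytes, and a small set of transcription factors directs the steps. PU.1, encoded by Spi1, and C/EBPα establish the myeloid program, whereas C/EBPε, with GFI1, is required for the later stages in which the secondary granules form. C/EBPβ and C/EBPδ are tied to emergency granulopoiesis and to inflammatory gene expression. RUNX1, MYB, MYC and HoxB8 are known for their roles in progenitors, where MYB and MYC sustain proliferation and HoxB8, when kept active, blocks differentiation.

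The levels spanned a wide range, with Spi1 and Cebpb at the top and Myc alone below the median of all genes. In mean normalized counts, the median of the 13091 genes was 907 and the upper quartile 3065. Of the 10 genes, 9 lay above that quartile, and their median was 8420. Together they took 0.303% of the summed level of all genes. Because longer transcripts collect more reads, levels of different genes were compared per kb of the longest GENCODE M21 transcript that is paired with a RefSeq mRNA. On that scale 8 of the 10 genes were above the upper quartile of 1256, and Runx1 lay between it and the median of 395.

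**Figure D1:**
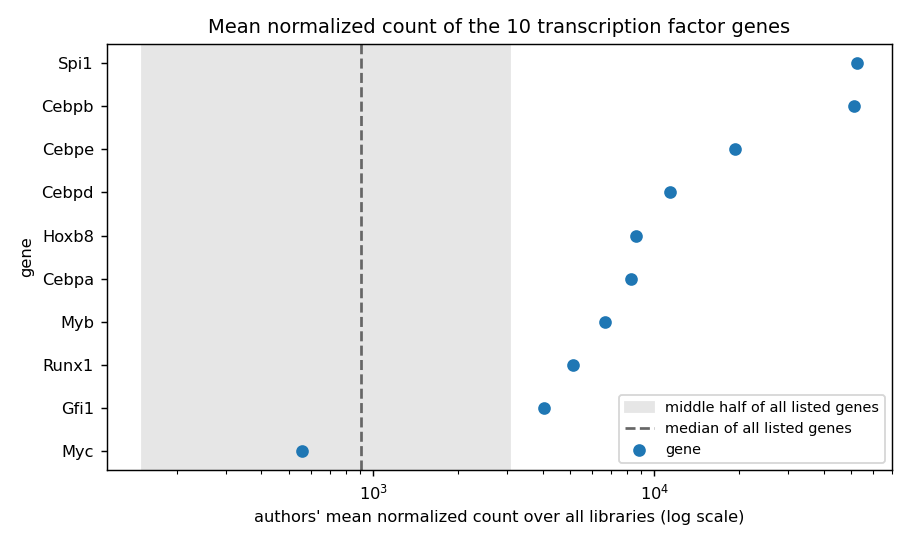
Authors' mean normalized count over the libraries (horizontal log axis) of each of the 10 genes (points), with the range between the quartiles of all listed genes shaded and their median as a dashed line. Spi1 (52487) and Cebpb (51495) are the highest, and Myc (556) is the only one of the 10 below the median of 907.

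Spi1 encodes the ETS-family factor PU.1, which is required for the myeloid and B-cell lineages. Its mean normalized count was 52487, the 121st highest of all genes listed. Per kb it stood at 25805, above 98.4% of the 11127 genes with a length. The gene lies on chromosome 2 of GRCm38 (the assembly of mm10) from 91082374 to 91115759 on the plus strand, and its mRNA of 2034 bases has 5 exons.

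The 4 C/EBP genes encode basic leucine zipper proteins that bind the same DNA motif as dimers, and they differed in level. Cebpb had a mean normalized count of 51495 and the highest level per kb of the 10 genes, at 34239. Cebpe, the factor of late granulopoiesis, followed within the family at 19396 mean normalized counts and 15629 per kb. Per kb, Cebpb was 2.19 times as high as Cebpe, and Cebpe 4.98 times as high as Cebpa. The second ratio fell to 3.01 per kb of coding sequence and to 2.35 with no length correction. Cebpa, the factor of the early steps, had a mean normalized count of 8244 and a level of 3140 per kb. Cebpd had a mean normalized count of 11347 and a level of 3029 per kb.

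The levels per kb of Cebpa and Cebpd were within a ratio of 1.04 of each other, but this depends on the length given to Cebpd. Its GENCODE transcript has 3746 bases, whereas RefSeq places the gene, which has 1 exon, within 2260 bases. With the RefSeq length, a choice made once the values were known, Cebpd stood at 5021 per kb, and Cebpa at 3128. Per kb of coding sequence Cebpd was 1.84 times as high as Cebpa. Cebpa lies on chromosome 7 from 35119293 to 35121928, Cebpb on chromosome 2 from 167688915 to 167690432 and Cebpd on chromosome 16 from 15887286 to 15889545, all on the plus strand and each with a single exon. Cebpe has 2 exons on the minus strand of chromosome 14 from 54710363 to 54712174.

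Gfi1 encodes a zinc finger repressor that restrains monocyte genes during neutrophil differentiation. Its mean normalized count was 4057, above 80.2% of all genes listed, and its level per kb was 1418. It lies on the minus strand of chromosome 5 from 107716655 to 107725805. Runx1 encodes the DNA-binding subunit of core binding factor. Its mean normalized count was 5156 and its level per kb was 880, above 67.8% of genes. The level of Runx1 is the one most sensitive to the transcript taken as its length, since its 3 mRNAs paired with RefSeq run from 1985 to 5861 bases. With the shortest it stood at 2597 per kb. Runx1 covers chromosome 16 from 92601466 to 92826074 on the minus strand.

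Myb and Myc, both factors of proliferating progenitors, stood far apart. Myb, on the minus strand of chromosome 10 from 21124930 to 21160984, had a mean normalized count of 6668, above 87.7% of all genes listed. Myc, on the plus strand of chromosome 15 from 61985341 to 61990361, had 556, above 41.7% of them. Per kb the levels were 1806 and 238, so that of Myb was 7.59 times that of Myc, and 12 times with no length correction.

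Hoxb8 had a mean normalized count of 8595 and a level of 3262 per kb of its mRNA, above 88.9% of genes with a length. Per kb of coding sequence the level was 11791. The ratio of Hoxb8 to Cebpa was 1.04 with the length of the mRNA and 1.54 with the coding length. The gene lies on the plus strand of chromosome 11 from 96279401 to 96285325. The immortalizing construct also carries HoxB8, and whether these reads come from the construct or from the gene itself was not tested, since the tables give 1 value per gene. The Hoxb8 mRNA shared 2 of its 2605 different words of 31 bases (0.0768%) with transcripts of any other gene. Both words fall in 1 run of 32 bases, which Hoxd8 (chromosome 2 from 74704615 to 74707933) holds as well. The run is shown in capitals with 12 bases of each mRNA on either side, because it is the one stretch by which a Hoxb8 word could be taken for another gene's.
Hoxb8: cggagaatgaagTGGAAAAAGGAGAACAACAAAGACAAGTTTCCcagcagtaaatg
Hoxd8: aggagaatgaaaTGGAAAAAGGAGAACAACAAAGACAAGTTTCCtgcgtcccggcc
Hoxd8 is not among the genes listed.

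**Figure D2:**
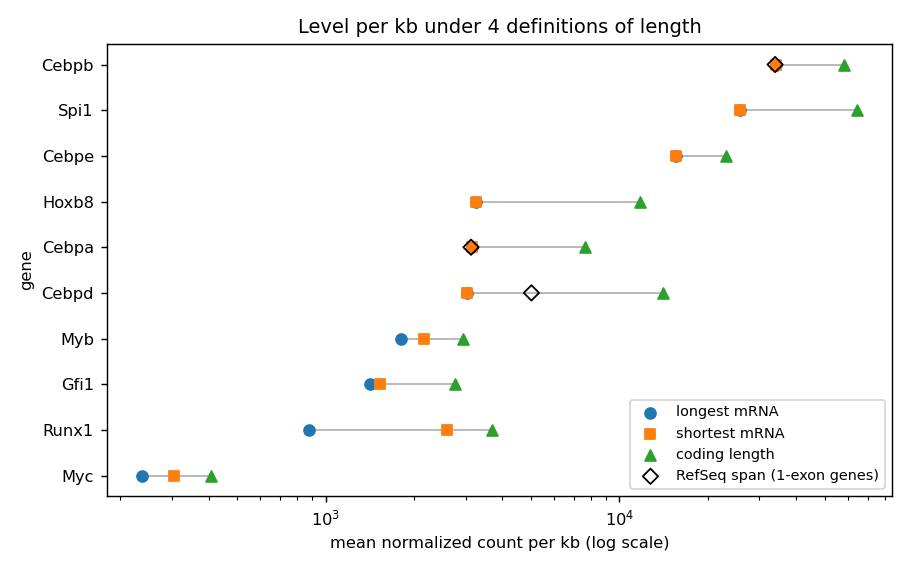
Mean normalized count per kb (horizontal log axis) of each of the 10 genes, with the length taken from the longest mRNA (circles), the shortest mRNA (squares), the coding sequence (triangles) or, for the genes with 1 exon, the RefSeq span (diamonds). Cebpb, Spi1 and Cebpe hold the 3 highest values and Myc the lowest with each of these lengths, and Runx1 moves from 880 to 2597 between its longest and shortest mRNA.

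With the length of the longest mRNA the order was Cebpb, Spi1, Cebpe, Hoxb8, Cebpa, Cebpd, Myb, Gfi1, Runx1 and Myc. No spread between libraries was used here, so it cannot be said which neighbours in this order differ beyond it. Cebpb and Spi1 were within a ratio of 1.33, and changed places when the coding length or no length was used. Hoxb8, Cebpa and Cebpd lay between 3029 and 3262 with the length of the longest mRNA, and between 7655 and 14113 with the coding length.

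Annotated neighbours bear on some of these values. The mRNA of Cebpb overlaps the exons of Tmem189 on the other strand by 312 bases, 20.7% of its exon sequence, and that of Cebpd overlaps Spidr on the other strand by 562 bases (15.0%). Tmem189 had a mean normalized count of 12016 and Spidr of 1366. Exons of Myb overlap the antisense gene Gm26577, which is not listed, by 559 bases (6.26% of the 8933 exon bases of all Myb transcripts). Of the 31-base words of the Myb mRNA used for its level, 10.3% were shared with other genes, all on the other strand. Whether the authors counted by strand is not given in the sources used here, and without strand the reads of these stretches cannot be told apart. Little sequence was shared with other genes on the same strand. Words of 31 bases on the same strand were shared with any other gene by 0.407% of the Cebpb mRNA, by 0.309% of the Runx1 mRNA, and by none of those of Cebpa, Cebpd, Cebpe, Spi1, Gfi1, Myb and Myc.

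Families and partners of the 10 factors were described from lists of 57 genes, of which 42 were listed. All 5 relatives of the C/EBP factors were listed, with a median of 1551 per kb. The highest was Atf4, the stress-response factor, at 7935 per kb, and the lowest Cebpg, a dimer partner without an activation domain of its own, at 250. Cebpb was 137 times and Cebpa 12.6 times as high per kb as Cebpg, and 22.2 and 2.93 times as high per kb of coding sequence.

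PU.1 acts with IRF4 or IRF8 at composite DNA sites, and IRF8 favours the monocyte over the neutrophil fate. Irf8 had a mean normalized count of 122 and a level of 42.8 per kb, and Irf4 had 174 and 36.4. Spi1 was 602 times as high per kb as Irf8. With other lengths the ratio ran from 430 with no length correction to 671 per kb of coding sequence. Among the other ETS factors Fli1 was the highest, at 3343 per kb, and Spib and Spic, the closest relatives of Spi1, were not listed.

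All 5 genes of the GFI1 list were listed. Gfi1b, the paralog that acts in erythroid and megakaryocytic cells, was the lowest of them at 506 per kb, and Gfi1 was 2.80 times as high, or 4.4 times with no length correction. Hdac1, a histone deacetylase of the GFI1 co-repressor complex, was the highest at 2751. Cbfb, which encodes the common partner of the RUNX proteins, stood at 1077 per kb, and which of it and Runx1 was higher depended on the length. The ratio of Runx1 to Cbfb was 0.817 with the longest mRNA of each gene, 0.977 with the median, 2.07 with the shortest, 0.666 with the coding length and 1.66 with no length correction. Runx2 was the lowest of the RUNX list at 258 per kb and Runx3 stood at 550. In the MYB list Mybl1 was the lowest at 26.0 per kb and Ep300, a histone acetyltransferase that MYB recruits, the highest at 704, and Myb itself was 3.81 times as high as Mybl2.

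MYC binds DNA with MAX, and the MXD proteins compete with it for MAX. Mxd1, which rises as myeloid cells mature, had a mean normalized count of 77808 and the highest level of this list, 16676 per kb, against 238 for Myc, a ratio of 70.1. Max stood at 4100 per kb, 17.2 times the level of Myc. Per kb of coding sequence these ratios to Myc were 279.9 for Mxd1 and 40.6 for Max. With no length correction they were 140.0 and 14.3, and with the shortest mRNA of each gene 54.6 and 13.5. Mycn was the lowest at 7.87 per kb and Mycl was not listed.

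Of the 11 HOX genes and HOX cofactors, 4 were listed. Hoxb8 was 14.4 times as high per kb as Hoxb4, at 226, the one other HOX gene listed of the 7 looked for. Hoxa7, Hoxa9, Hoxa10, Hoxb6, Hoxb7 and Hoxb9 were not listed. Among the cofactors that bind DNA with HOX proteins, Pbx2 was the highest of the list at 2122 per kb and Meis1 the lowest at 35.4, and Pbx3 stood at 138.

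Of 9 factors of other lineages, 4 were listed. Gata1, of erythroid, mast cell and eosinophil lineages, was the highest at 790 per kb, Gata2 stood at 582 and Tcf7, of T cells, at 63.1. Klf4, a factor of monocytes, was the lowest at 2.86 per kb, with a mean normalized count of 8.65. Gata3, Klf1, Pax5 and Ebf1 were not listed. A gene that is not listed may still be expressed, because the authors' filter is not given in the sources used here. The lowest mean normalized count listed was 5.08.

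**Figure D3:**
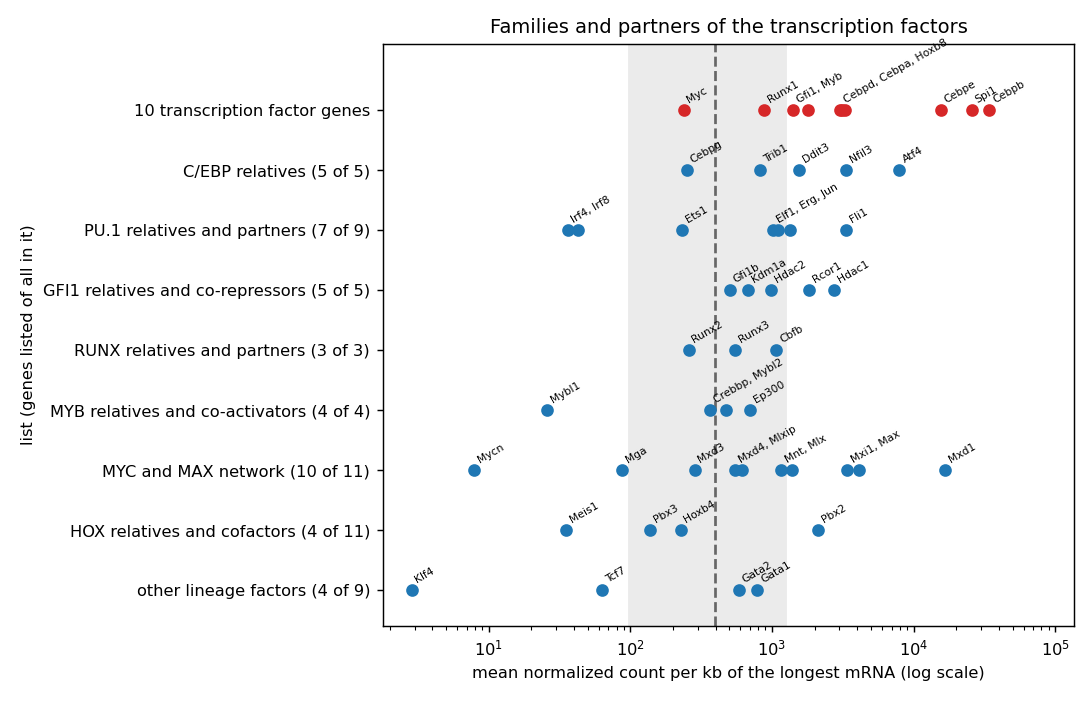
Mean normalized count per kb of the longest mRNA (horizontal log axis) of the 10 genes (red) and of the listed genes of 8 lists of relatives and partners (blue), with the range between the quartiles of all genes shaded and their median dashed. Spi1 at 25805 stands above every listed relative and partner of PU.1, and Myc at 238 stands below Mxd1 at 16676 and Max at 4100.

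The labelled cell type was checked against marker genes. All 13 neutrophil markers were listed and above the upper quartile of all genes, from Cxcr2, the chemokine receptor of mature neutrophils, at 11905 per kb to S100a9, a calcium-binding protein that fills their cytosol, at 2487149. S100a9 had the highest mean normalized count of all genes, 1290830. Ly6g, the surface marker of mouse neutrophils, stood at 12086 per kb, and Ltf, Camp, Ngp and Lcn2, proteins of the secondary granules whose genes depend on C/EBPε, lay between 133544 and 906294. Genes of the primary granules, which are made in promyelocytes, were high as well, with Prtn3 at 62605 per kb, Mpo at 44276, Elane at 22303 and Ctsg at 11462. Of the surface markers of progenitors, Cd34 stood at 1004 per kb and Kit at 205, and Flt3 was not listed.

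Markers of other granulocytes were also found. Prg2 and Epx, which encode the major granule proteins of eosinophils, stood at 320189 and 53096 per kb, while Siglecf stood at 1832 and Ccr3, the eotaxin receptor, at 20.1. Cpa3, a protease of mast cells and basophils, stood at 18148 per kb, Mcpt8 at 3352 and Ms4a2 at 248, and Fcer1a was not listed. Of the macrophage and monocyte markers 5 of 6 were listed, from Ccr2 at 419 per kb to Ly6c2 at 32214, with Csf1r at 845, Adgre1 at 3111 and Cd68 at 5450, and Mertk was not listed. Of the dendritic list only Itgax was listed, at 65.4 per kb, while Xcr1 and Siglech were not. Itga2b stood at 1897 per kb, Epor at 172 and Pf4 at 64.8 in the erythroid and megakaryocyte list, whereas Hbb-bt was not listed. Cd79a, at 57.5 per kb, was the one B-cell marker listed, and Cd3e, Cd3g and Ncr1 of the T and NK cell list were not listed either. The share of other cells in the level of any of the 10 genes was not tested, and in bulk RNA more cells of a type and more RNA per cell cannot be told apart.

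**Figure D4:**
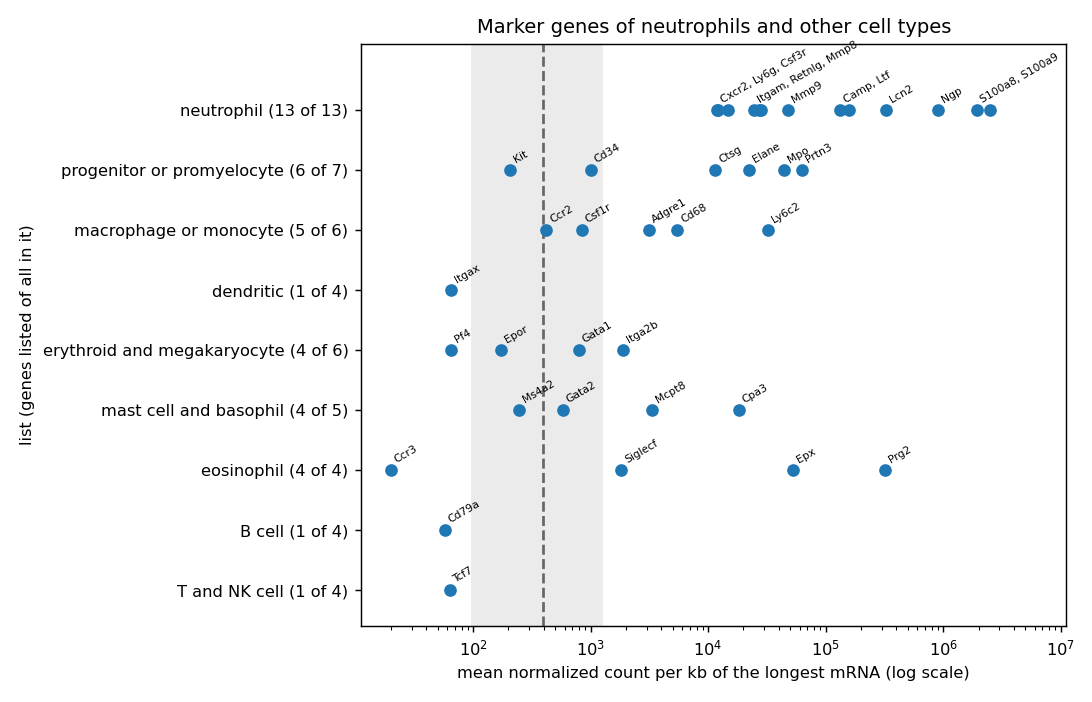
Mean normalized count per kb of the longest mRNA (horizontal log axis) of marker genes of neutrophils and of 8 other sets of cells, with the range between the quartiles of all genes shaded and their median dashed. All 13 neutrophil markers lie at 11905 or above, and Prg2 (320189) and Epx (53096) of the eosinophil list lie among them. So do Prtn3, Mpo, Elane, Ly6c2 and Cpa3 of other lists.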

How the data were processed

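Poly(A) RNA of 10 libraries was sequenced as paired reads. Per the labels, the authors used cutadapt 4.4 for trimming, STAR 2.7.10b for alignment to mm10 and DESeq2 1.26.0 for normalization, and their methods add RUVSeq covariates of unwanted variation. The signal used here, baseMean, is the authors' deposited mean of size-factor-normalized counts, with 1 value per gene and no value per library. The annotation, the strand setting and the filter on genes are not given in the sources used here. The other deposited columns hold the authors' fold changes with standard errors, Wald statistics, p-values, adjusted p-values and labels made from these, and none was used. A count model had been planned only for counts per library and was not run.

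Levels were divided by the length of the longest GENCODE M21 transcript paired with a RefSeq mRNA, found for 11127 genes (85.0%). Lengths of RefSeq transcripts themselves had been planned. Of these only the span of genes with 1 exon was used, as an added alternative. Percentiles give the share of genes with a lower value. Positions are from RefSeq on GRCm38.p6, and strand, exons and overlaps from GENCODE M21. Words of 31 bases of each longest mRNA were searched in all GENCODE transcripts on both strands, and the search was tested on simulated sequences. Python 3.11.15, numpy 2.4.6, pandas 2.3.3 and matplotlib 3.10.9 were used. The named genes were the 10 factors, the highest, the lowest and the unlisted genes of each related list, and the markers that check the label, and a few others of these lists were named after their values were seen. Some items of these lists are not reported here. The genes and lists were chosen with earlier results of these data known.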

Additional observations from a re-analysis of the deposited data

How the results depend on the processing

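The order of the 10 genes per kb was the same with the median in place of the longest mRNA, and 3 genes changed places with the shortest mRNA, 8 with the coding length, 7 with no length correction and 3 with the RefSeq length of genes with 1 exon, which was added once the values were known. Cebpb, Spi1 and Cebpe held the 3 highest places and Myc the lowest in each of these settings. Among genes with a mean normalized count of at least 100, Gfi1 lay at the 74.9th percentile in place of the 80.2nd and Myc at the 26.1st in place of the 41.7th, and among protein-coding genes Myc lay at the 34.5th. With that minimum the median per kb of the MYC and MAX network was 1164 in place of 888, and that of the factors of other lineages 582 in place of 322. No paired analysis was possible because the tables give no values per clone, and for the same reason leaving out a clone, a replicate block and other normalizations could not be run. The planned identity between the C/EBP proteins was not run, because protein sequences were not used here. As no spread between libraries was used, none of the differences in level can be set against replicate error.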
